A study of Mus musculus with 72 samples.

Results

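The genes of the MHC class II antigen presentation pathway were examined in ChIP-seq peak lists of resting splenic B cells (rBs). The 10 genes, of 22380 protein-coding genes in the annotation, were named from the known pathway, with no threshold on a measured value. They are H2-Aa, H2-Ab1, H2-Eb1, H2-DMa, H2-DMb1, H2-DMb2, H2-Oa, H2-Ob, Cd74 and Ciita. Peaks of 5 antibodies (IKAROS, ETS1, IRF8, PAX5 and OCT2) were taken within 20 kb of the gene bodies in GENCODE vM1 (mm9). The cells were C57BL/6, either wild type (WT, Hmgn1+/+n2+/+) or lacking both nucleosome-binding proteins HMGN1 and HMGN2 (DKO, Hmgn1-/- n2-/-), with 2 biological replicates per genotype and antibody. H3K27ac and H3K27me3 of WT and DKO mouse embryonic fibroblasts (MEFs), of the same strain and with 2 replicates per genotype, served as contrast. The comparison asks whether the B cell transcription factors occupied these genes when HMGN1 and HMGN2 were absent.

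The windows merged into 4 regions with a total length of 361 kb. H2-Oa, H2-DMa, H2-DMb2 and H2-DMb1 shared a region of 108 kb on chromosome 17, and H2-Ob, H2-Ab1, H2-Aa and H2-Eb1 a second one of 117 kb. The region of Cd74 on chromosome 18 spanned 48.8 kb and that of Ciita on chromosome 16 spanned 87.4 kb. Other genes lie in them (Brd2, H2-Eb2, Dexi, Clec16a and part of Tcof1), so a peak in a window is not assigned to a member by its place alone.

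Class II molecules are pairs of an alpha and a beta chain that carry peptides of ingested proteins to the surface of B cells, dendritic cells and macrophages, where CD4+ T cells read them. The new pair is held by the invariant chain (Cd74) until H2-DM exchanges the remaining fragment for a peptide, and H2-DO restrains H2-DM. CIITA, a co-activator without DNA binding of its own, is recruited to a promoter module of X and Y boxes and sets the output of the whole group.

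The stretches upstream of the first annotated starts of the 3 classical class II genes show how much of this module was found by exact match (mm9, read from the NCBIM37 assembly). Capitals mark the Y box CTGATTGG and the X box, each searched on both strands. The strand is that of the gene, minus for H2-Aa.
H2-Aa, chr17:34424773-34424902: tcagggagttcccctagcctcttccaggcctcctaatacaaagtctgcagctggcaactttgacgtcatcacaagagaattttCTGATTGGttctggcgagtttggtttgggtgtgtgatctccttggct
H2-Ab1, chr17:34400024-34400153: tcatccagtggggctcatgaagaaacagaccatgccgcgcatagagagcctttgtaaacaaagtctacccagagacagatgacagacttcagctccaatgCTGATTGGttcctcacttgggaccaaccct
H2-Eb1, chr17:34442698-34442827: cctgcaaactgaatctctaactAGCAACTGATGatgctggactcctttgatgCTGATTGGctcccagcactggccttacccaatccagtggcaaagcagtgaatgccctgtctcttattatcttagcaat
All 3 held the Y box, and H2-Eb1 alone held an exact match to the X box. Within 200 bp upstream of 45984 annotated starts, the Y box was found at 3.71% and the X box at 0.0283%. The other members had no match to either box in that window.

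The stretches around 3 ETS1 summits are printed here (mm9, plus strand), and not all are centred on the summit. Capitals mark the ETS motif (CGGAAG or AGGAAG on either strand) and the ETS-IRF composite motif (GGAA and GAAA with 2 bases between). All 3 kept an ETS1 peak in both DKO libraries.
Ciita intron, chr16:10516318-10516458: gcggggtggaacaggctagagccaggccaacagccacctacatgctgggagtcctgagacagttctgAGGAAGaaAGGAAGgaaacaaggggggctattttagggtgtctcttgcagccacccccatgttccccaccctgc
Upstream of H2-DMb2, chr17:34280059-34280199: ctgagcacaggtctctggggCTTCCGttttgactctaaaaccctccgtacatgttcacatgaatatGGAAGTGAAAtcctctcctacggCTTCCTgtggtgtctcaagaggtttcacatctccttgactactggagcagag
Between H2-Aa and H2-Eb1, chr17:34430492-34430647: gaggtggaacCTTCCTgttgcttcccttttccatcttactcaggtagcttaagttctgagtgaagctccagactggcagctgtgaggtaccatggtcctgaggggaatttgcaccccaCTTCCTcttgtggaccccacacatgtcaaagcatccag

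IKAROS, a zinc finger factor of lymphocytes, had peaks at the starts of nearly all members. A peak lay within 1 kb of a start in both WT libraries at 9 of the 10 genes, against 13.6% of all protein-coding genes, and the same 9 genes kept such a peak in both DKO libraries. Of all genes with a start peak in both WT libraries, 59.9% kept one in both DKO libraries and 28.9% had none in either. The fold enrichment, the height of the read pileup over the local background as the authors' peak caller gives it, was lower in both DKO libraries than in both WT libraries at all 9, as at 90.5% of the 1828 genes with a start peak in 4 libraries. Ciita (ENSMUSG00000022504.8) was the exception, with a single weak start peak in WT replicate 1 (fold enrichment 3.76) and none in the other 3 libraries.

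Among the classical chains, the alpha chain gene H2-Aa (ENSMUSG00000036594.7) had a fold enrichment at its strongest start peak of 26.4 and 30.3 in WT against 10.2 and 10.5 in DKO cells. For the beta chain gene H2-Ab1 (ENSMUSG00000073421.4) the values were 15.5 and 19.4 against 11.2 and 13.0. H2-Eb1 (ENSMUSG00000060586.8), the beta chain of the other classical pair, gave 27.8 and 27.9 against 14.5 and 13.6. The genotypes did not overlap at any of the 3 genes, and H2-Aa fell furthest.

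The H2-DM genes encode the peptide exchanger. H2-DMa (ENSMUSG00000037649.9) had 8.43 and 11.2 in WT against 7.72 and 8.07 in DKO cells. H2-DMb1 (ENSMUSG00000079547.2) had 11.0 and 15.9 against 7.60 and 6.75, and H2-DMb2 (ENSMUSG00000037548.8) 18.3 and 19.4 against 9.36 and 10.1. H2-DMb1 and H2-DMb2 are near copies, so reads that map to both cannot be placed, and the split between them is uncertain. At H2-DMa the higher DKO library came close to the lower WT library, while the DMb genes were clearly apart.

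For H2-DO, H2-Ob (ENSMUSG00000041538.8), the beta chain, had the highest start peak of all members, with 38.4 and 33.3 in WT against 15.8 and 16.8 in DKO cells. H2-Oa (ENSMUSG00000024334.7), the alpha chain, had 12.3 and 11.1 against 8.46 and 7.08. Cd74 (ENSMUSG00000024610.8), the invariant chain, gave 22.9 and 21.2 against 14.6 and 9.63. At H2-Ob, at Cd74 and, in DKO replicate 1, at H2-Ab1 the strongest DKO peak lay at another site than the strongest WT peak. At the site of the WT peak the DKO values were 15.6 and 14.3 for H2-Ob, 8.30 and 9.58 for Cd74, and 9.22 in DKO replicate 1 for H2-Ab1. In WT cells the order by the mean, from H2-Ob over H2-Aa, H2-Eb1 and Cd74 to H2-DMa, spanned a wide range, but neighbours such as H2-Aa and H2-Eb1, or H2-DMb2 and H2-Ab1, did not differ beyond the spread of their replicates.

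**Figure D1:**
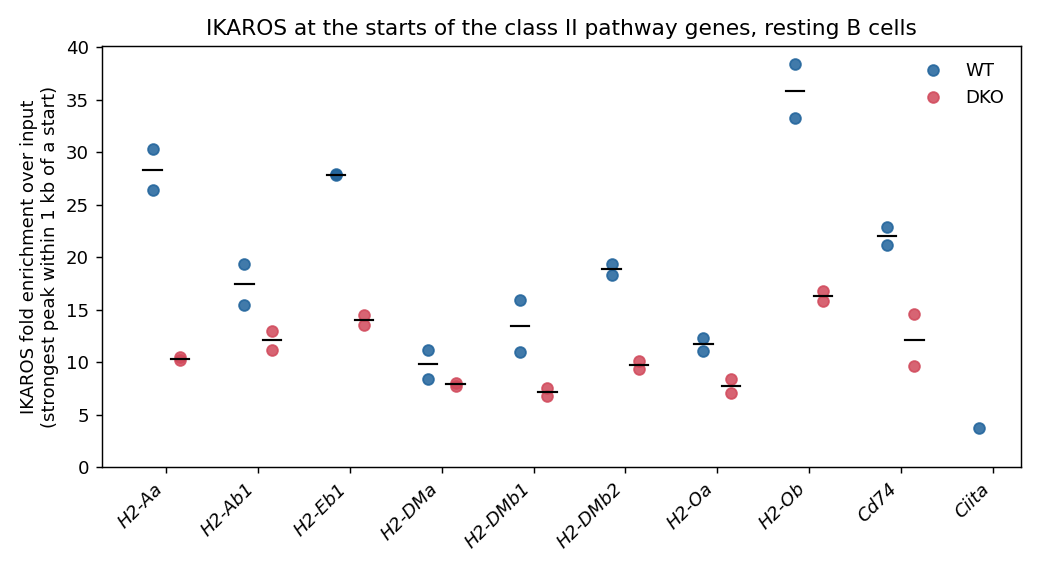
IKAROS fold enrichment over input (y axis) at the strongest peak within 1 kb of a start of each of the 10 genes (x axis), with 1 point per library (blue WT, red DKO) and a bar at the mean of 2. All 9 genes with peaks in both genotypes have both DKO points below both WT points, as do 90.5% of all genes with a start peak in 4 libraries, and Ciita has a single WT point at 3.76.

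Tested at each site, where the peaks of the 4 libraries were merged if they overlapped by 1 bp or more, the strongest fall at a start was that of H2-Aa. In an intron of H2-Aa, 125 bp downstream of the start, the log2 change in IKAROS fold enrichment (DKO minus WT) was −1.44 (standard error, SE, 0.19, adjusted p = 2.8e-04, limma). At the downstream H2-Ob start it was −1.26 (SE 0.19, adjusted p = 4.5e-04, limma), and upstream of Cd74 −1.30 (SE 0.19, adjusted p = 4.0e-04, limma). The site over the H2-DMa exon changed by −0.30 (SE 0.21, adjusted p = 0.194, limma) and did not pass the threshold of 0.05. Past the threshold were also the start sites of H2-DMb2 (−0.95), H2-DMb1 (−0.88), H2-Oa (−0.59), H2-Ab1 (−0.66 downstream and −0.46 upstream), H2-Eb1 (−0.73 downstream and −0.98 upstream) and the upstream H2-Ob start (−0.69). With −log10 p in place of fold enrichment, all of these missed the threshold. Adjusted p (limma) was then 0.0693 at H2-DMb2, 0.110 at H2-DMb1, 0.355 at H2-Oa, and 0.494 and 0.263 at H2-Ab1. It was 0.134 and 0.0809 at H2-Eb1 and 0.112 upstream at H2-Ob. The site upstream of the H2-Aa start fell as well (−0.86, SE 0.19, adjusted p = 0.00279, limma). It also passed with −log10 p (adjusted p = 0.0336, limma). By fold enrichment, 79.8% of all 3549 IKAROS sites of 4 libraries were lower at the threshold. The calls at H2-Oa and on both sides of the H2-Ab1 start did not hold when single libraries were left out. That of H2-Oa was lost without WT replicate 1 (adjusted p = 0.0514, limma) or DKO replicate 2 (0.139). That downstream of H2-Ab1 was lost without WT replicate 2 (adjusted p = 0.0875, limma) or DKO replicate 1 (0.190), and that upstream of H2-Ab1 without WT replicate 2 (0.237), DKO replicate 1 (0.119) or DKO replicate 2 (0.166). The site downstream of the Cd74 start (−0.62, adjusted p = 0.0308, limma) was lost without DKO replicate 2 (0.303) and with −log10 p (0.127).

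Over the whole windows, IKAROS lists held 56 and 54 peaks in WT against 49 and 47 in DKO cells. The mean fell from 55.0 ± 1.41 to 48.0 ± 1.41 (SD, n = 2), to 87.3% of the WT number. The whole IKAROS lists fell from 9102 and 10969 peaks to 5032 and 4838, or to 49.2%. The 2 genotypes did not overlap in either count, and an exact permutation test of 2 against 2 libraries cannot go below 0.333, the p obtained for the windows. Base pairs under peaks in the windows, a measure added after the data were seen, went from 39.9 and 45.9 kb to 26.4 and 26.3 kb, or to 61.4% of WT, against 40.5% for the whole lists. With the same number of top peaks taken from every library, the windows held more peaks in DKO than in WT cells (123% of WT). A peak number is not a number of sites, since 1 site can hold several peaks of a library. The site downstream of the Cd74 start held 1 and 1 peaks in WT against 4 and 3 in DKO cells. That at the H2-Oa start held 2 and 1 against 1 and 1. The effect of such splitting on the peak numbers was not tested.

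Of 42 IKAROS sites in the windows called in both WT libraries, 7 had no peak in either DKO library (16.7%, exact 95% binomial interval 6.97 to 31.4), where 41.8% of all 7730 IKAROS sites had none. With lists trimmed from the top to equal length the shares were 5.71% and 11.5%. Taking WT replicate 2 or 1 alone raised the share to 33.3% and 30.9%, with 57.2% and 47.4% over all sites. No site of the windows was called in both DKO libraries and no WT library, as was the case for 0.445% of the sites called in both DKO libraries genome-wide. With each peak cut to 200 bp around its summit, 12 such sites appeared in the windows and 8.93% genome-wide, and all 12 overlapped an uncut WT peak. The lost sites were weak in WT cells. Their mean WT fold enrichment ranged from 4.55 to 7.94 (median 6.03), and that of the 35 sites with a DKO peak from 5.33 to 36.8 (median 15.1).

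When all IKAROS sites were ranked by their mean −log10 q in WT cells and cut into 10 classes, 15 of the 42 sites in the windows were in the strongest class and 9 in the next. In the 5 weaker classes 7 of 9 sites in the windows were lost, where 74.0% of all sites of these classes were. In the 5 stronger classes 0 of 33 were lost, where 9.60% of all were. The share lost fell from 93.7% of all sites in the weakest class to 0.129% in the strongest. The low share of lost IKAROS sites at the class II genes thus came together with the high strength of their sites, and the part of strength in it was not tested further.

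**Figure D2:**
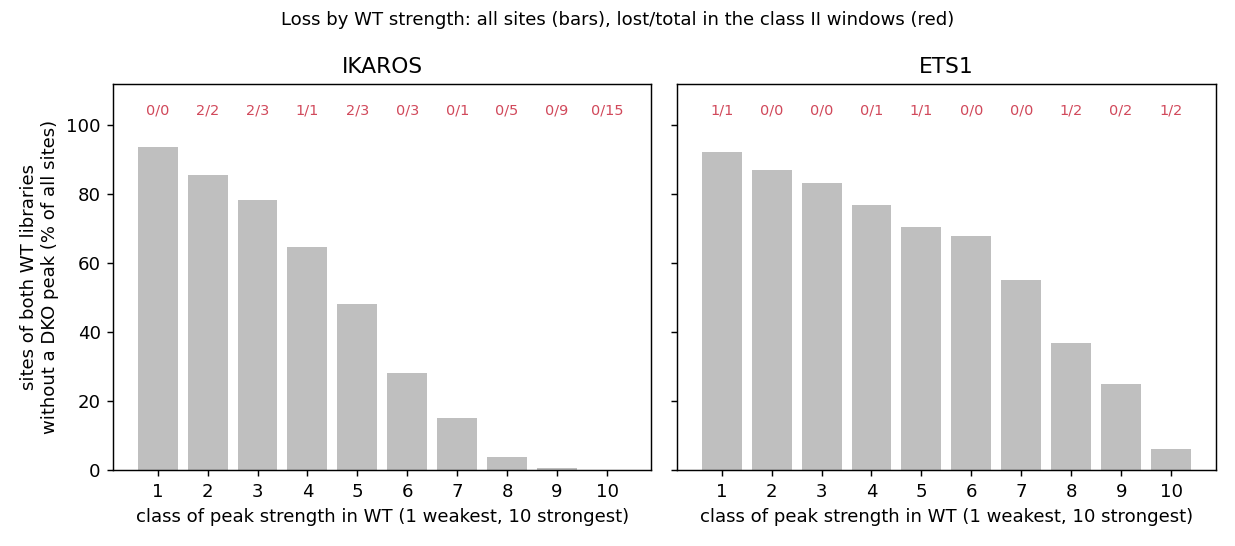
Share of sites called in both WT libraries that had no DKO peak (y axis, percent of all sites) in 10 classes of mean WT −log10 q (x axis), for IKAROS and ETS1. Grey bars are all sites, and red numbers give lost and total sites in the class II windows, with 0 of 15 lost in the strongest IKAROS class.

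The strongest lost IKAROS site by −log10 q lay 739 bp upstream of the protein-coding start of H2-DMb2 (chr17:34281087-34281976), with a fold enrichment of 7.49 and 7.32 in WT cells. A site over an exon of H2-DMb1, 305 bp downstream of a start, was lost as well (8.07 and 7.81 in WT). Both lay beside a stronger start peak that remained in both DKO libraries. The remaining 5 lost sites were 1 at Brd2 and 4 away from starts, near H2-Oa, H2-DMb2, H2-Aa and H2-Eb1.

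At the 31 window sites called in all 4 libraries, IKAROS fold enrichment fell at 28 and rose at 0 (limma, Benjamini-Hochberg over all 3549 such sites), against 79.8% lower and 0.310% higher over all sites. The median log2 change was −0.92 in the windows and −0.91 over all, a fold of 0.529 and 0.532 of WT. Both DKO libraries lay below both WT libraries at 29 of the 31 sites, as at 89.4% of all. Changes in the windows spread from −1.66 to 0.15. Relative to the median site, by centring each library on it, 2 window sites were lower and 2 higher, against 6.23% and 7.52% of all sites. The median fall of the class II windows was thus close to that of the whole list, with 4 sites apart from it. With −log10 p in place of fold enrichment 14 of the 31 sites were lower, against 56.7% of all sites. None of the start sites of the members differed from the median site at the threshold.

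**Figure D3:**
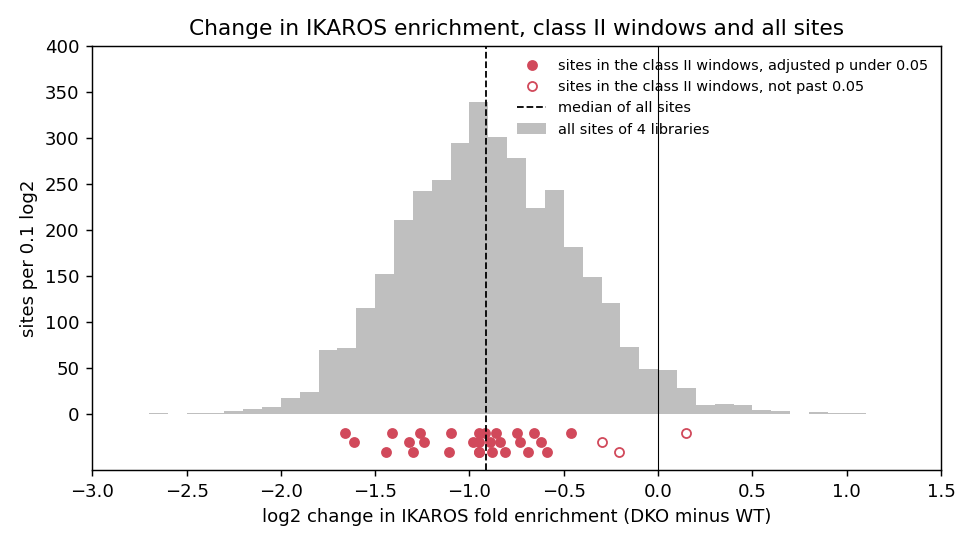
Log2 change in IKAROS fold enrichment, DKO minus WT (x axis), for all 3549 sites called in 4 libraries (grey histogram, y axis in sites per 0.1 log2) and for the 31 sites of the class II windows (points below, filled where the adjusted p is under 0.05). The dashed line marks the median of all sites at −0.91, and 28 points are filled.

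The 4 sites that stood apart lay away from starts and were named after their values were seen. By the same centring, 6.23% of all sites were lower and 7.52% higher. The largest fall was in an intron of Ciita (chr16:10516250-10516902), where the fold enrichment was 17.5 and 18.2 in WT against 5.83 and 5.45 in DKO cells, or −1.66 on the log2 scale (SE 0.18, adjusted p = 2.5e-04, limma) and −0.75 relative to the median site (adjusted p = 0.0283, limma). The adjoining site in that intron (chr16:10515635-10516130) did not fall, with 8.56 and 7.14 in WT against 11.4 and 6.55 in DKO cells, and stood 1.06 above the median site (adjusted p = 0.0295, limma). The DKO replicates of this neighbour disagreed by more than the genotypes did.

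Between H2-Aa and H2-Eb1, a site 4861 bp upstream of H2-Eb1 (chr17:34436916-34438194) fell from 38.5 and 35.0 to 12.6 and 11.5, or −0.70 relative to the median site (adjusted p = 0.0384, limma). Closer to it, a site 1133 bp upstream of its start gave 9.28 and 10.4 against 7.66 and 9.37, or 0.70 above the median site (adjusted p = 0.0429, limma). The broadest IKAROS site of the windows was in the same interval (chr17:34428788-34435464). It had 28.4 and 36.8 in WT against 16.1 and 17.5 in DKO cells, a change of −0.95 (SE 0.20, adjusted p = 0.00230, limma) that did not differ from the median site (adjusted p = 0.924, limma).

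IKAROS peaks covered wide stretches around the starts of 5 members. Over positions every 25 bp within 1 kb of the first protein-coding start, more than 80% were covered in each WT library at H2-Aa, H2-Ab1, H2-Eb1, H2-DMb2 and Cd74. Of all 2849 genes with an IKAROS peak within 1 kb of that start in both WT libraries, 2.21% and 2.84% passed this level, and the median gene had 19.8% and 24.7%. In DKO cells 2 members passed it in each library, against 0.597% and 0.632% of those genes. At H2-DMa, H2-DMb1 and H2-Oa the cover was between 22.2% and 35.8% in the WT libraries, nearer to the median gene.

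Few peaks reached over the position just upstream of the start. At the position 100 bp upstream of the start, which at the classical genes lies within the stretches printed above, 2 and 3 of the 10 members were covered in the WT libraries, against 8 and 8 at 200 bp downstream. The same dip was present over all 2849 genes, of which 21.4% and 26.5% were covered at 100 bp upstream and 61.1% and 66.8% at 200 bp downstream. H2-Aa and Cd74 had peaks on both sides and none from 150 to 50 bp upstream in all 4 libraries, as did 2.81% of the genes. A peak reached into the stretch from 150 to 50 bp upstream at 5 members in each WT library (H2-Ab1, H2-Eb1, H2-DMb1, H2-DMb2 and H2-Ob), against 32.8% and 38.4% of the genes, and at H2-DMb1 it covered the whole stretch in all 4 libraries. A peak interval shows where enrichment passed the threshold and not where a factor touched DNA.

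**Figure D4:**
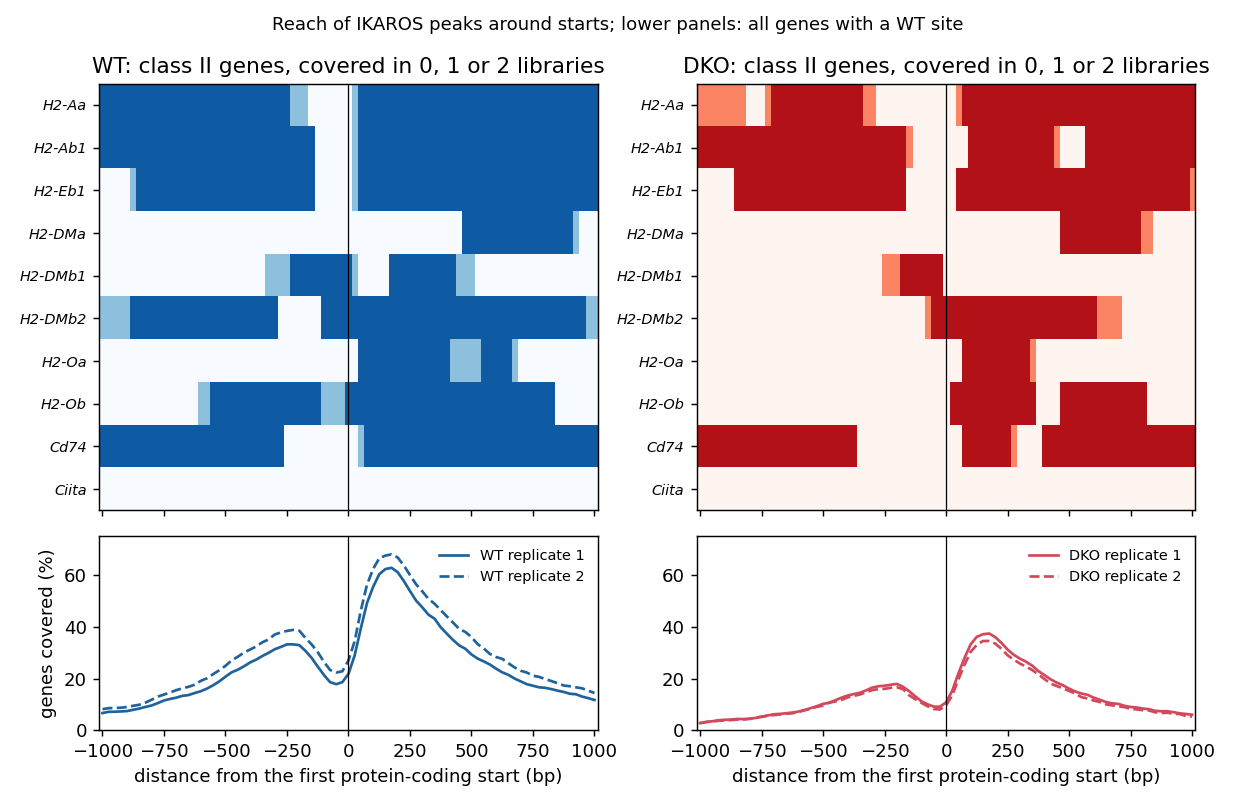
Cover by IKAROS peaks within 1000 bp of the first protein-coding start (x axis, distance in bp, negative upstream) in WT (left) and DKO cells (right). Upper panels show each class II gene, with darker color where both libraries had a peak, and lower panels the percent of the 2849 genes with a WT site that were covered in each library, with a dip just upstream of the start.

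ETS1, an ETS domain factor, had few peaks in the windows. The lists held 11 and 14 peaks in WT against 5 and 5 in DKO cells, 12.5 ± 2.12 against 5 ± 0 (SD, n = 2), or 40.0% of WT, with whole lists at 25.5%. Of 9 sites called in both WT libraries, 4 had no DKO peak (44.4%, exact 95% binomial interval 13.7 to 78.8), where 60.0% of all 3293 ETS1 sites had none. None was called in the DKO libraries alone, as 0.773% were genome-wide. The interval for the windows holds the share of the whole list. With lists trimmed from the top to equal length, the windows held 76.9% of the WT number, and 2 of 6 sites were lost (33.3%), against 19.5% of all.

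Start peaks of ETS1 in both WT libraries were found at 2 of the 10 members, against 5.38% of all genes. Neither kept a DKO peak, as was the case for 63.7% of the genes with an ETS1 start peak in both WT libraries. At H2-DMb2 (chr17:34281832-34282010) the fold enrichment was 5.61 and 6.40 in WT cells, and at H2-Ob (chr17:34376687-34376991) it was 5.52 and 6.27. An IKAROS peak within 1 kb of the start remained at both genes, but the IKAROS site that overlapped the ETS1 site of H2-DMb2 was lost as well. Ciita had ETS1 start peaks in WT replicate 2 (6.29) and DKO replicate 1 (3.66) and in no other library. H2-Oa had one in WT replicate 1 (8.37).

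The strongest ETS1 site lost was in an intron of Cd74 (chr18:60966875-60967273), with 8.66 and 14.2 in WT cells and no peak in either DKO library, although it was in the strongest class of WT sites, of which 6.08% were lost. The fourth lost site was at the start of Clec16a (4.14 and 4.54 in WT).

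At 4 window sites ETS1 was called in all libraries. In the Ciita intron the fold enrichment was 14.9 and 10.8 in WT against 8.78 and 9.28 in DKO cells, or −0.49 on the log2 scale (SE 0.23, adjusted p = 0.0870, limma, and 0.0431 without WT replicate 2). Upstream of H2-DMb2 it was 7.15 and 6.36 against 5.64 and 5.15, and between H2-Aa and H2-Eb1 7.28 and 7.06 against 7.04 and 6.82. In an intron of Tcof1, in the Cd74 window, it was 9.26 and 6.75 against 6.33 and 7.58. None of the 4 sites was lower or higher (limma, 0 also at an unadjusted p under 0.05), where 49.7% of 743 ETS1 sites were lower and 1.75% higher. The median was −0.26 in the windows and −0.57 over all. Both DKO libraries lay below both WT libraries at 3 of the 4, as at 67.8% of all sites.

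IRF8, an interferon regulatory factor, was found at 4 sites, none within 1 kb of a member's start. Peaks in the windows numbered 4 and 2 in WT against 0 and 1 in DKO cells. Upstream of Cd74 by 11714 bp (chr18:60951682-60951872) the fold enrichment was 8.20 and 6.29 in WT cells and no DKO peak was called. The Tcof1 intron had 7.69 and 5.59 in WT and 4.48 in DKO replicate 2. The sites upstream of H2-DMb2 (6.76) and in the Cd74 intron (6.57) were called in WT replicate 1 alone. Of 2 sites of both WT libraries 1 had no DKO peak (both without DKO replicate 2), where 48.6% of 675 did, and 0 were DKO-only, against 3.04%. With so few sites no difference from the whole list could be detected.

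PAX5, which maintains B cell identity, had 2 peaks per WT library and 0 per DKO library. They lay in the Ciita intron (chr16:10516148-10516424, 6.39 and 6.81) and upstream of H2-DMb2 (chr17:34279955-34280181, 5.78 and 5.78). Both sites were thus without a DKO peak, as were 77.5% of all 151 PAX5 sites, and none was DKO-only, as none (0.0%) was genome-wide. The DKO lists of PAX5 held 28 and 34 peaks in all, so loss at 2 sites says little about these genes. OCT2, a POU factor of B cells, had no peak in the windows in any library, with whole lists of 72 and 65 peaks in WT against 10 and 18 in DKO cells.

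The IKAROS, ETS1, IRF8 and PAX5 sites of the windows, those called in a single library included, merged into 58 elements. Of these, 10 (17.2%) held peaks of at least 2 factors and 5 (8.62%) of at least 3, against 23.1% and 3.94% of 14178 elements genome-wide. Of the 9 ETS1 sites of both WT libraries 7 overlapped an IKAROS site (77.8%), and of the 42 IKAROS sites 8 overlapped an ETS1 site (19.0%). Over all sites these shares were 54.2% and 25.2%.

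The element upstream of H2-DMb2 (chr17:34279445-34280257) held all 4 factors. IKAROS fell there from 18.8 and 18.3 to 7.47 and 8.26 (log2 change −1.24, SE 0.18, adjusted p = 4.4e-04, limma). ETS1 kept a peak in every library and PAX5 in none of the DKO libraries. The summits of ETS1 (34280129), PAX5 (34280087) and IRF8 (34280086) lay within the stretch printed above, which holds a composite ETS-IRF motif starting at base 67. In the Ciita intron the ETS1 and PAX5 summits (10516338 and 10516333) were 5 bp apart, and the pair of AGGAAG motifs started at bases 68 and 76 of the stretch, downstream of both.

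In the Cd74 intron (chr18:60966684-60968104) IKAROS remained at 15.1 and 15.2 in WT against 7.66 and 8.02 in DKO cells, while ETS1 had no DKO peak. The IRF8 peak there was called in WT replicate 1 alone (6.57). Upstream of Cd74 (chr18:60951682-60952496) IKAROS was called in both WT libraries (7.88 and 7.92) and DKO replicate 2 (5.99). In the Tcof1 intron (chr18:60990202-60991534) it was called at 8.66 and 9.79 in WT and at 3.95 in DKO replicate 1.

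**Figure D5:**
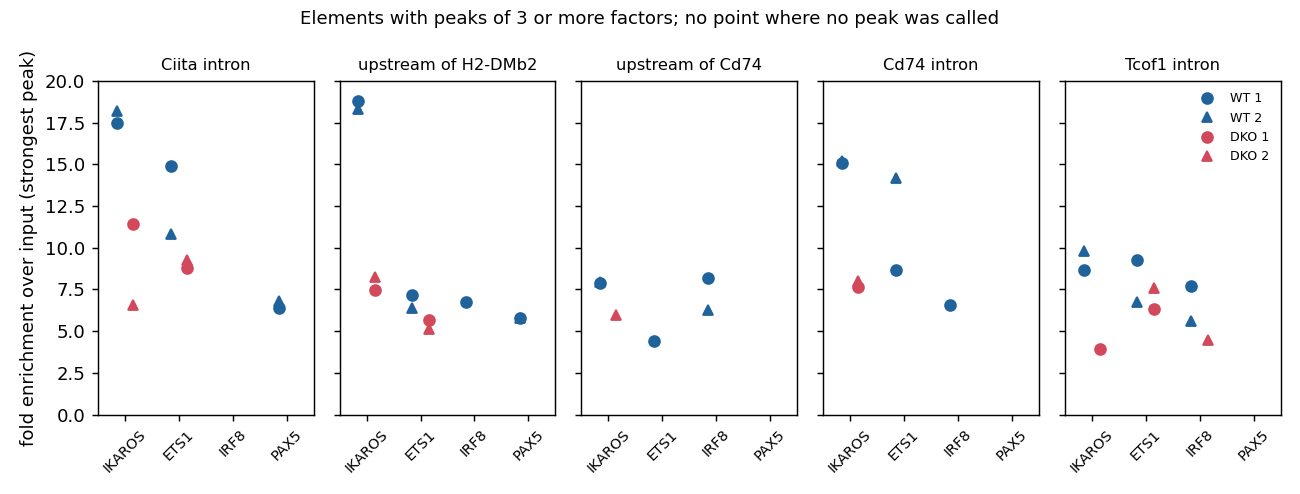
Fold enrichment over input (y axis) of the strongest peak of each factor (x axis) at the 5 elements with peaks of at least 3 factors, by library (blue WT, red DKO; circles replicate 1, triangles replicate 2). A missing point means that no peak was called, as for PAX5 in the DKO libraries at the Ciita intron and upstream of H2-DMb2. At the Ciita intron the IKAROS points of the genotypes come from different sites. The WT points (17.5 and 18.2) are of the site that fell to 5.83 and 5.45, the DKO points (11.4 and 6.55) of its neighbour.

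The motifs were searched within 100 bp of the summit, on both strands, at sites of both WT libraries. The IKAROS core TGGGAA was present at 11 of 42 IKAROS sites in the windows (26.2%), at 18.2% of all IKAROS sites and in 15.2% of promoter stretches of the same length. The ETS motif was present at 6 of 9 ETS1 sites (66.7%), against 76.7% of all ETS1 sites and 37.4% of promoters. Both IRF8 sites held the composite motif, as did 45.8% of all IRF8 sites and 1.58% of promoters. Neither the octamer ATGCAAAT, the site of OCT factors, nor the interferon response motif (GAAA repeated with 2 bases between) was found at the IKAROS sites of the windows, where 0.608% and 2.63% of all IKAROS sites held them.

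In MEFs, which do not present antigen on class II molecules at rest, H3K27ac, a mark of active promoters and enhancers, had no called peak at the starts of the 10 members in any of the 4 libraries, while 49.5% of all genes had one in both WT libraries. The windows held 13 and 11 peaks in WT against 12 and 12 in DKO cells, 12 ± 1.41 against 12 ± 0 (SD, n = 2). Within 5 kb of the gene bodies no library held a peak. The strongest was over Brd2, a broadly expressed bromodomain gene between H2-Oa and H2-DMa, with 41.4 and 47.4 in WT against 47.0 and 47.0 in DKO cells. Of 8 sites of both WT libraries 3 had no DKO peak (37.5%, exact 95% binomial interval 8.52 to 75.5), against 11.2% of all. Of 7 sites of both DKO libraries 2 had no WT peak, against 8.83%. At the 4 sites called in all libraries, over Dexi, Clec16a and Brd2, 0 changed (limma, 0 also at an unadjusted p under 0.05), against 3.47% lower and 1.68% higher of 42234 sites. H3K27me3, a mark of silenced genes, gave 1 narrow peak, in an intron of H2-DMb1 in DKO replicate 1 (6.01). Its lists were short, with 553 and 388 peaks in WT against 213 and 117 in DKO cells. Few places in the genome passed this threshold, so absence of the mark at the members was not shown.

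Other genes of the pathway were counted by IKAROS peaks within 1 kb of a start in both WT libraries, to be read against the 13.6% of all genes with such a peak and the 28.9% of those that lost it. Of 7 genes that act with CIITA in transcription, 4 had such a peak (Creb1, Nfya, Nfyc and Rfx5) and all 4 kept one in a DKO library. Nfyc, a subunit of the factor that binds the Y box, had the strongest, 41.8 and 49.3 in WT against 24.8 and 20.5 in DKO cells (log2 change −1.01, SE 0.20, adjusted p = 0.00154, limma). Start peaks of ETS1 in both WT libraries lay at Creb1 and Nfya and had no DKO counterpart, as for 63.7% of all genes with such ETS1 peaks.

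Of 7 genes of antigen processing 3 had an IKAROS start peak, and Ifi30, a thiol reductase of the endosome, had none in DKO cells (5.72 and 3.63 in WT). Ctss, the protease that trims the invariant chain, had 12.7 and 14.4 against 4.90 and 4.69 (log2 change −1.49, SE 0.19, adjusted p = 2.6e-04, limma). Of 5 genes of turnover and costimulation 3 had start peaks in both WT libraries. Cd40 kept its peak, while Cd86, a ligand of CD28 (5.29 and 8.07 in WT), did not. Icosl, a ligand of ICOS, had no DKO start peak either. Its WT start peaks lay at 2 separate sites, of which 0 were called in both WT libraries (strongest 5.38, in WT replicate 2). Among 10 neighbours of the class II region 7 had such peaks, and Psmb8, a subunit of the immunoproteasome, lost its peak (6.19 and 5.91 in WT).

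The cell type was checked with start peaks of marker genes. IKAROS peaks lay at 9 and 9 of 10 B cell genes in the WT and at 7 and 7 in the DKO libraries, and at none of 10 fibroblast genes and none of 9 annotated T cell and myeloid genes. MEF H3K27ac lay at 10 of 10 fibroblast genes in every library, and at 1 B cell gene and 2 myeloid genes.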

How the data were processed

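ChIP-seq peak lists of 16 antibodies in WT and DKO cells were deposited, 64 in all, with 2 replicates per genotype; those of the 5 rB antibodies and of MEF H3K27ac and H3K27me3 were used. The authors trimmed reads (cutadapt 1.16), mapped them to mm9 with BWA, marked duplicates, removed blacklisted regions and called narrow peaks per library against input (MACS2 2.1.1.20160309). The deposited fold enrichment is the ratio at the summit to the local background, and the −log10 p and −log10 q were computed by the authors in MACS2. Read numbers per library are not in the lists, so the depth is unknown, and precision rests on the 2 replicates; intervals on shares of sites cover counting error only. Because a peak number and a fold enrichment both move with depth and with the yield of a precipitation, these cannot be told apart from occupancy.

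Peaks of the 4 libraries of an antibody were merged into sites when sharing at least 1 bp (Python 3.11.15, pandas 2.3.3). Log2 fold enrichment at sites called in all 4 libraries was compared with limma 3.58.1 for antibodies with at least 100 such sites, with Benjamini-Hochberg adjustment over all of them and a threshold of 0.05. Such sites had to pass the caller in both genotypes, so lost sites are outside this test. The steps were tested on simulated data. Named were all members, the sites over their starts, the strongest WT-only site of each factor and every IRF8, PAX5 and OCT2 site; sites that stood apart from the median, and the other shared elements, were named after their values were seen. The members and gene lists were chosen with earlier results of these data known. Alternatives were a q of at most 0.0001, a 5 kb window, equal numbers of top peaks, peaks of 200 bp, centring, −log10 p, a replicate block and each replicate left out. Motifs were read from the genome with pysam 0.24.0; of 1156918 deposited peaks 1 ran past a chromosome end. The promoter table of another build and the lists of the other 9 antibodies were not used in the comparisons.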

Additional observations from a re-analysis of the deposited data

Results flagged for a closer look

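The ESC and MEF lists of antibodies that the comparisons did not use held peaks in the class II windows, called by the authors against input. CTCF, a zinc finger factor of chromatin boundaries, had 27 sites called in all 4 ESC libraries, and 0 of its sites of both WT libraries lacked a DKO peak, where 1.58% of all 58820 did. Of its 30 window sites of both DKO libraries 2 had no WT peak, as had 2048 of 60991 overall. NANOG, a factor of pluripotent cells, had 7 sites called in all 4 ESC libraries, and 0 of its 8 window sites of both WT libraries lacked a DKO peak, where 3.97% of all did. Brd3, a bromodomain protein that binds acetylated histones, had 2 sites called in all 4 MEF libraries. These were its only window sites of both WT libraries, where 52.0% of all such sites lacked a DKO peak. CEBPB in MEFs had 1 window site of both WT libraries, at the start of Cd74, and it had no DKO peak. Of all CEBPB sites of both WT libraries 55.2% had none. OCT4 in ESCs had 3 window sites of both DKO libraries, of which 2 had no WT peak. Over all sites, 10116 of 22833 had none. Klf4, SOX2, p300 and histone H1 had no window site called in both libraries of a genotype.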

How the results depend on the processing

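Of 126 recomputed values of peak numbers, lost shares and counts of changed sites, 115 stayed within the spread or within 1.5 times of the count. With every list trimmed to equal length from the top, IKAROS peaks in the windows turned from fewer to more in DKO cells (123% of WT), ETS1 peaks were 76.9% and IRF8 peaks 100% of WT, and the share of lost IKAROS sites fell to 5.71%, against 11.5% of all sites. Base pairs in place of peak numbers, chosen after the data were seen, gave 61.4% of WT for IKAROS.

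Centred on the median site, 2 IKAROS sites in the windows were lower and 2 higher, and with −log10 p in place of fold enrichment 14 of 31 were lower (56.7% of all sites). Centring turned the sign of 9 start sites, to 0.61 at H2-DMa, 0.32 at H2-Oa, 0.03 at H2-DMb1, 0.23 at the upstream H2-Ob start, 0.45 and 0.25 at H2-Ab1, 0.05 upstream of H2-Aa, 0.19 downstream of H2-Eb1 and 0.29 downstream of Cd74, none past the threshold. Centring removes the median fall by its construction.

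Leaving out single replicates, the share of lost sites ranged from 19.0% to 33.3% for IKAROS and from 50% to 100% for IRF8, and the number of lower ETS1 sites from 0 to 1. With the same libraries left out, the shares over all sites ranged from 47.0% to 57.2% for IKAROS and from 55.0% to 61.8% for IRF8. A single library then defined a WT site or its loss. The IRF8 shares of the windows rest on 2 to 4 sites and the ETS1 counts on 4 or 5. The replicate numbers mark no shared batch in the labels, and deviations of same-numbered IKAROS libraries from their group means correlated at −0.06. With a replicate block 27 of 31 IKAROS sites in the windows were lower (80.3% of all sites), and the call upstream of H2-Ab1 was lost (adjusted p = 0.0716, limma). The unknown depth of the libraries, and lists of 10 to 34 DKO peaks for PAX5 and OCT2, limit what loss of a peak can show.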
